A study of Arabidopsis thaliana with 6 samples.

Results

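Transcript levels of 5 heat-inducible chaperone genes were examined in whole *Arabidopsis thaliana* seedlings that carried a mutation in an F-box gene. The genes were AT5G48570, which encodes an immunophilin of the FK506-binding protein (FKBP) type and is also called *ROF2* or *FKBP65*, and the small heat shock protein genes AT5G37670, *ATHSP22.0* (AT4G10250), AT1G52560 and AT2G29500. A probe set was taken as a member where the array's annotation table paired it with exactly 1 of these genes, which gave 1 probe set for each of the 5, out of 13350 genes with a probe set of their own. Transcripts were measured on Affymetrix ATH1 arrays, on which a probe set is a group of short probes for 1 transcript.

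Small heat shock proteins are chaperones that form oligomers, bind unfolding proteins without using ATP and hold them until ATP-driven chaperones can refold them. Plants have many of them, in the cytosol, nucleus, endoplasmic reticulum, mitochondria, plastids and peroxisomes, and most of their genes are weakly transcribed in vegetative tissue until heat shock factors activate them. Some are also made in maturing seeds without heat. ROF2 is a large immunophilin whose tetratricopeptide domain binds HSP90, and it acts with its relative ROF1 on the heat shock factor HSFA2.

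The wild type was the Nossen (No-0) accession, grown in the light and collected at 5 days. The mutant, *fbp7-3*, had the same background, light and age, and differed in *FBP7*, which encodes an F-box protein, the substrate-binding part of an SCF ubiquitin ligase. Each genotype had 3 samples of whole seedlings, and each sample was hybridised to 1 array. The labels name no heat treatment in either group, and do not say whether the 3 samples of a genotype came from plants grown separately. The p-values therefore rest on the spread between these samples. In the main test (limma) the spread of other probe sets of like signal enters too. The annotation table lists no probe set for *FBP7*, and the level of the mutated gene was not analysed here. The nature of the *fbp7-3* lesion is not given in the sources used here.

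All 5 genes were dim. Their 30 signals ran from 10.2 to 100.9 on the linear MAS5 scale, and all 30 lay below the median of their array, which was between 188.7 and 200.7. Under the 25th percentile of their array (39.2 to 49.7) lay 6 of the 30, of which 3 were on mutant replicate 2. Low signals of this kind are noisy on a log scale, and no detection calls were used here, so expression above background was not established for any of the 5 genes. All 5 passed the filter on dim probe sets, with mean log2(signal + 16) values of 5.93 to 6.54 against a lowest tested value of 5.70. None of the 5 changed between the genotypes at a Benjamini-Hochberg adjusted p under 0.05 in limma, where 1.06% of the 17059 tested probe sets did. Nor did any have an unadjusted p under 0.05 in this fit, where 11.8% of tested probe sets did. RNA quality moved with the genotype. Its index, the mean log2 ratio of 3′ to 5′ signal of control probe sets, was 0.878 to 0.998 on wild type arrays and 1.07 to 1.33 on mutant arrays, and values from a fit with this index as a covariate are given below where they move a result. Because the index did not overlap between the genotypes, effects of RNA quality and of genotype cannot be told apart on these arrays. The part of RNA quality in the members' values was not tested otherwise.

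The FKBP gene AT5G48570 had signals of 71.0, 55.8 and 78.6 in wild type replicates 1, 2 and 3 and of 54.9, 32.7 and 30.6 in mutant replicates 1, 2 and 3. Each mutant array lay below each wild type array, but mutant replicate 1 and wild type replicate 2 were only 0.9 signal units apart. The means were 68.5 ± 11.6 (SD, n = 3) in wild type seedlings and 39.4 ± 13.5 (n = 3) in the mutant. The log2 change was −0.63 ± 0.32 (SE), with a 95% interval of −1.30 to 0.05 and an adjusted p of 0.461 (limma). AT5G48570 was the only member whose groups did not overlap, and 17% of all tested probe sets had non-overlapping groups, 8.56% with the mutant lower. A two-sided exact permutation test of 3 against 3 cannot go below 0.1, and that was its p for AT5G48570. On the other 4 members the same test gave p values of 0.2 to 0.8.

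The widest difference among the small heat shock protein genes was that of AT1G52560. Its signals were 100.4, 53.8 and 63.5 in wild type replicates 1, 2 and 3 and 49.4, 10.2 and 55.1 in mutant replicates 1, 2 and 3. Mutant replicate 2 was far below the other 5 arrays, and mutant replicate 3 exceeded wild type replicate 2, so the groups overlapped. The log2 change was −0.80 ± 0.40 (95% interval −1.66 to 0.06, adjusted p = 0.457), and −0.34 without mutant replicate 2 (adjusted p = 0.777). With the RNA quality covariate it was −1.41 (adjusted p = 0.780). Its mean signal was 72.6 ± 24.6 in wild type seedlings and 38.2 ± 24.4 in the mutant.

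AT2G29500, which encodes a small heat shock protein of the cytosolic class I, had signals of 90.8, 73.9 and 97.5 in wild type seedlings and of 42.9, 62.3 and 89.6 in the mutant, in replicate order. Mutant replicates 1 and 2 were below every wild type array, and mutant replicate 3 was inside the wild type range. The log2 change was −0.39 ± 0.28 (95% interval −0.99 to 0.22, adjusted p = 0.653). It was −0.18 without mutant replicate 1, −0.60 without mutant replicate 3 and −0.96 with the RNA quality covariate (adjusted p = 0.583 to 0.865). Class I genes are similar in sequence, and cross-hybridisation between them was not tested.

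*ATHSP22.0* encodes the small heat shock protein of the endoplasmic reticulum. Its wild type signals, 41.5, 36.1 and 34.2, were close together, and its mutant signals, 70.5, 20.6 and 91.2, lay on both sides of them. Mutant replicates 1 and 3 were thus above every wild type array and mutant replicate 2 below every one. The mean was 37.3 ± 3.79 in wild type seedlings and 60.8 ± 36.3 in the mutant, and the log2 change was 0.39 ± 0.40 (95% interval −0.47 to 1.25, adjusted p = 0.768). Leaving out mutant replicate 2 gave 0.86 (adjusted p = 0.415), and leaving out mutant replicate 3 gave 0.08. The direction turned with the RNA quality covariate, to −0.19 (adjusted p = 0.990).

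AT5G37670, whose product is a peroxisomal small heat shock protein, had the smallest difference of the 5. Its signals were 97.8, 47.3 and 86.9 in wild type seedlings and 74.4, 67.8 and 100.9 in the mutant. The lowest value was on a wild type array and the highest on a mutant array, and the groups overlapped throughout. The log2 change was 0.09 ± 0.29 (adjusted p = 0.948). It was below 0 with the RNA quality covariate (−0.46), without wild type replicate 2 (−0.17) and without mutant replicate 3 (−0.06), and reached 0.25 without wild type replicate 1, so no direction is given for this gene. Its 95% interval of −0.53 to 0.70 corresponds to 0.692 to 1.63 times the wild type level on the log2(signal + 16) scale, so moderate changes in either direction were not resolved.

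**Figure D1:**
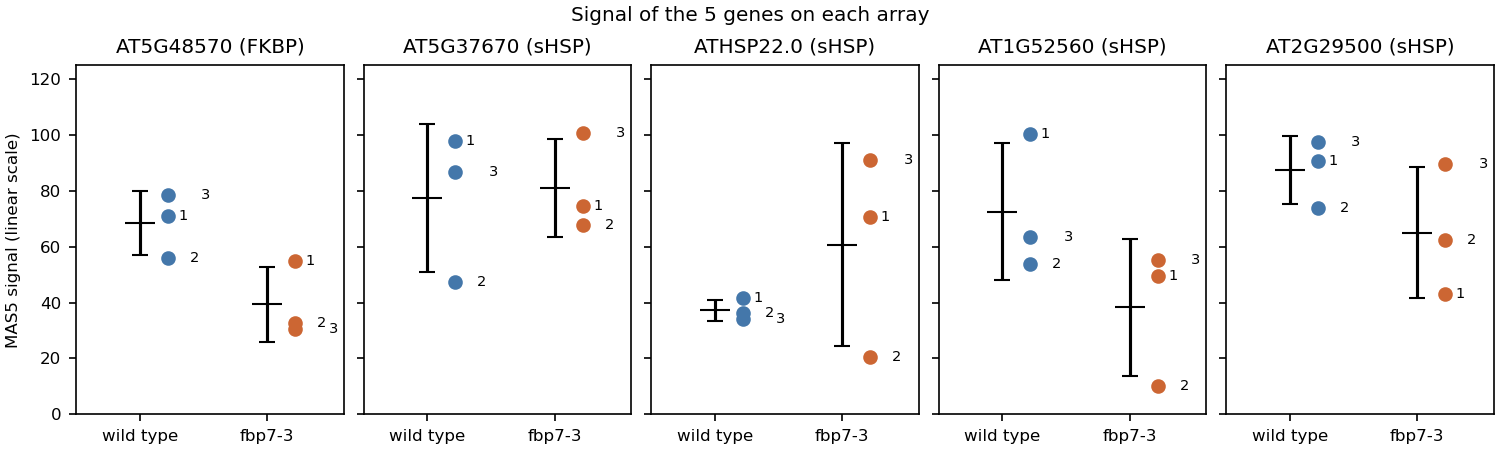
MAS5 signal (linear axis) of each of the 5 genes on the 3 wild type and 3 *fbp7-3* arrays. Coloured points are arrays, numbered by replicate, and the black bar and whiskers are the mean ± SD. The groups are separate for AT5G48570 alone, and mutant replicate 2 is the lowest array for *ATHSP22.0* (20.6) and AT1G52560 (10.2).

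The intervals of all 5 genes included 0. Of the 5 changes 3 were below 0 and 2 above, and their median was −0.39, beside a median of 0.00 over all 17059 tested probe sets, of which 50.1% were below 0. That median is the value of AT2G29500. With 1 array left out, the members' median ran from −0.51 without mutant replicate 3 to −0.18 without mutant replicate 1. With the RNA quality covariate all 5 changes were below 0. That fit was less precise, with SEs of 0.39 to 0.59 against 0.28 to 0.40 without the covariate, and no member passed in it. The members' own residual SD, the spread within genotypes on the log2 scale, was 0.28 for AT5G48570, 0.32 for AT2G29500, 0.37 for AT5G37670, 0.58 for *ATHSP22.0* and 0.63 for AT1G52560. Over all tested probe sets its median was 0.18, and over the 1534 probe sets with mean signals between those of the dimmest and the brightest member it was 0.36. Among these 1534 probe sets 3, or 0.196%, were called at all. AT5G48570 and AT2G29500 thus had residual SDs below the median of these 1534 probe sets, and AT5G37670 was close to it. *ATHSP22.0* and AT1G52560 were above it. Each of these SDs rests on 4 residual degrees of freedom.

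**Figure D2:**
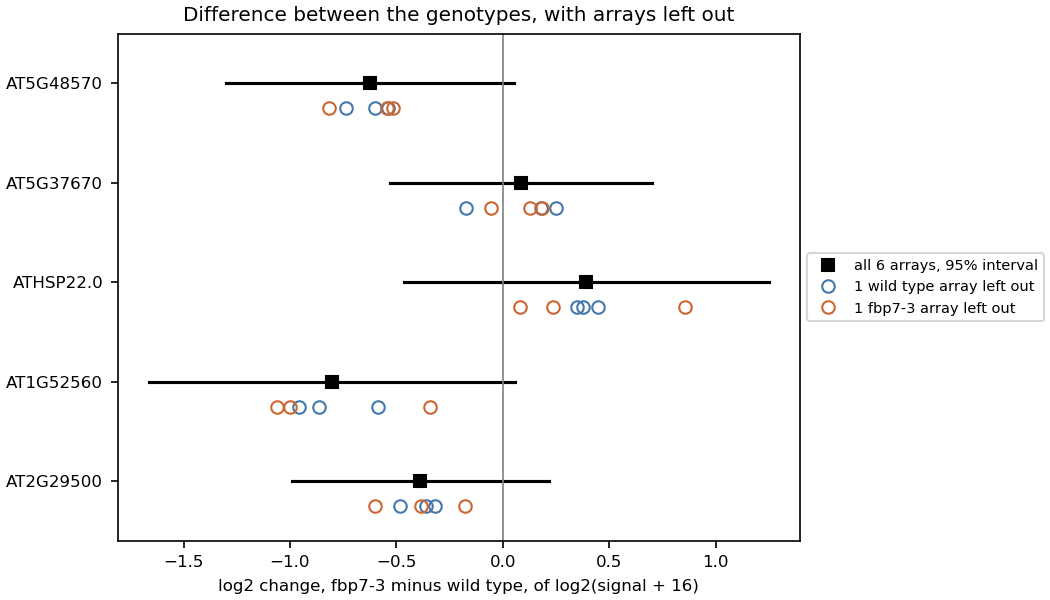
Difference between the genotypes for each gene on the log2(signal + 16) scale, *fbp7-3* minus wild type. Black squares and lines are the change and its 95% interval from all 6 arrays, and open circles the change with 1 array left out. All 5 intervals include 0, and the circles of AT5G37670 fall on both sides of it.

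The 5 genes did not share a single pattern over the arrays. Each gene's log2 values were centred on its own mean over the 6 arrays. All 5 genes were then below their own mean on mutant replicate 2, with an average of −0.58. On wild type replicates 1 and 3 and on mutant replicate 3, 4 of the 5 were above it, with averages of 0.33, 0.19 and 0.19. On wild type replicate 2 and mutant replicate 1 the averages were −0.12 and −0.02. The exceptions differed from array to array. On wild type replicates 1 and 3 the gene below its mean was *ATHSP22.0*, and on mutant replicate 3 it was AT5G48570, which had its lowest value there (−0.54) while *ATHSP22.0* and AT5G37670 had their highest (0.82 and 0.33).

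Mutant replicates 2 and 3 therefore differed by 0.77 in the average of the 5 genes. The means of the genotypes differed by 0.27, or by 0.05 without mutant replicate 2. The members' median change, −0.39 with all 6 arrays, was −0.34 without mutant replicate 2. It was −0.18 without mutant replicate 1 and −0.51 without mutant replicate 3. The Pearson coefficient between 2 members over the 6 arrays ran from −0.20 (AT5G48570 with *ATHSP22.0*) to 0.67 (AT5G48570 with AT1G52560), with a median of 0.41 over the 10 pairs. With each genotype centred on its own mean, it ran from −0.51 (AT5G48570 with AT2G29500) to 0.94 (*ATHSP22.0* with AT1G52560), with a median of 0.31. These coefficients are descriptions over 6 shared arrays, and the scaling of each array enters every gene measured on it.

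**Figure D3:**
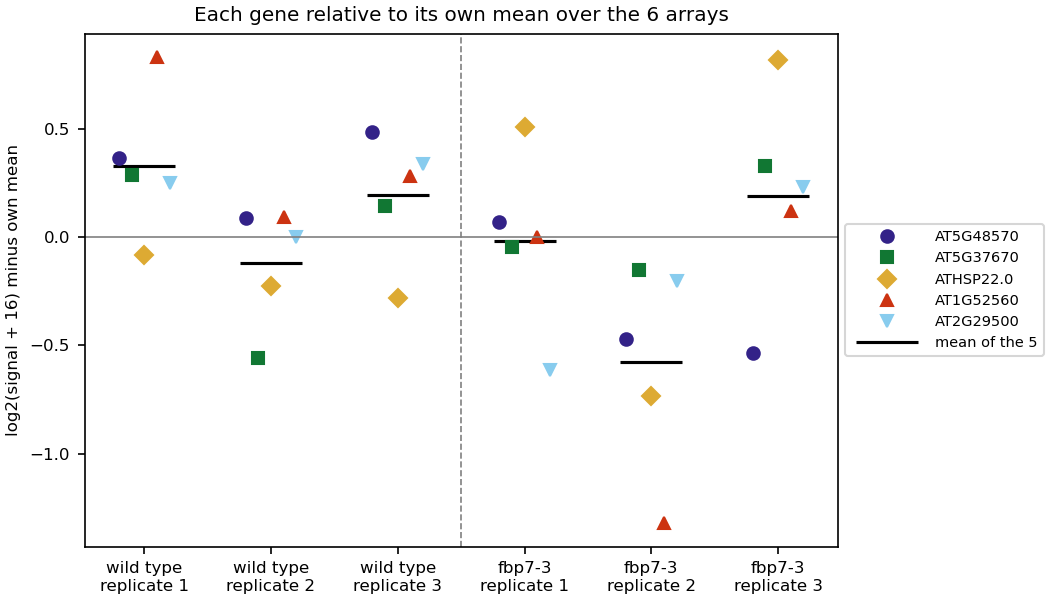
Log2(signal + 16) of each gene minus its own mean over the 6 arrays, by array. Symbols are genes and black bars the mean of the 5. On *fbp7-3* replicate 2 all 5 symbols are below 0, and on *fbp7-3* replicate 3 AT5G48570 is at −0.54 while *ATHSP22.0* is at 0.82.

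Probe sets for other genes of the same families were compared in the same fit. The list of other small heat shock proteins, written from general knowledge, held 14 genes, of which 6 had a probe set of their own and 4 were bright enough to be tested. AT4G21870 rose in the mutant, and the other 3 tested genes did not pass. AT4G21870 had signals of 479.6, 381.4 and 396.4 in wild type seedlings and 561.6, 860.3 and 811.2 in the mutant, so that each mutant array was above each wild type array. Its mean went from 419 ± 52.9 to 744 ± 160, a log2 change of 0.79 ± 0.16 (95% interval 0.45 to 1.12, adjusted p = 0.0278, limma). Over all tested probe sets 0.522% were called higher in the mutant.

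The array with the highest AT4G21870 signal, mutant replicate 2, was the one on which the 5 members were lowest on average. The call of AT4G21870 was lost in 4 of the 6 fits without 1 array, at adjusted p values of 0.0867 and 0.0754 with the second or the third wild type array left out and of 0.145 and 0.160 with the second or the third mutant array left out. The change itself was 0.67 to 0.75 in these 4 fits. The call was also lost when dim probe sets were kept (0.0821) and when the variance model had no trend on intensity (0.246), with the change still at 0.79. With the RNA quality covariate the change was 0.53 (adjusted p = 0.806).

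Of the other tested small heat shock protein genes, AT1G54050 had means of 482 ± 28.5 in wild type seedlings and 400 ± 58.6 in the mutant (log2 change −0.27 ± 0.14), and its groups did not overlap, by 450.8 for the lowest wild type array and 450.2 for the highest mutant array. AT5G54660 had a change of −0.31 ± 0.19 and AT2G19310 of 0.01 ± 0.14, and the adjusted p values of these 3 genes were 0.459 to 0.986. The 4 changes had a median of −0.13. Too dim to be tested were AT1G53540, with signals of 36.4, 41.1 and 59.4 in wild type seedlings and 54.7, 6.3 and 20.4 in the mutant, and AT5G51440, with 23.8, 40.7 and 6.2 in wild type seedlings and 19.9, 79.1 and 79.0 in the mutant. Neither gave separate groups. Of the 6 genes, AT1G53540 was lowest on mutant replicate 2, while AT4G21870, AT5G51440 and AT2G19310 were highest on it.

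The wider heat response was covered in part. Of 102 genes listed, 28 had a probe set of their own and 26 were tested, of which 1 rose (AT4G21870) and none fell. Their changes had a median of −0.04, with 20 below 0 and 6 above. None of the listed heat shock factor, HSP90, HSP100 or chaperonin genes had a probe set of its own in the annotation used, so these were not analysed here.

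The list of other heat-response genes held co-chaperones, the *Hop* genes among them. The Hop proteins connect HSP70 with HSP90, and *Hop3* is the heat-induced member. *Hop3* had signals of 130.5, 169.9 and 116.0 in wild type seedlings and 76.6, 100.8 and 93.8 in the mutant. These groups did not overlap, as in AT5G48570, and the log2 change was −0.53 ± 0.22 (95% interval −1.01 to −0.06, adjusted p = 0.357). *Hop1* had a change of −0.19 ± 0.10, from 873 ± 39.8 to 765 ± 37.9, also with separate groups (−0.12 with the RNA quality covariate), and *Hop2* of −0.19 ± 0.11, with overlapping ones. Their adjusted p values were 0.517 and 0.527. None of the 3 *Hop* genes passed. The other listed co-chaperones had smaller changes, and their difference from the *Hop* genes was not tested. *BOB1* had a change of 0.12 ± 0.11 (adjusted p = 0.714) and AT4G02450 of −0.06 ± 0.11 (adjusted p = 0.875). The immunophilin gene *SQN* was at −0.04 ± 0.27 (adjusted p = 0.978). Among the 26 tested genes 5 had non-overlapping groups, or 19.2%, beside the 17% of all probe sets. *HSA32*, a heat-induced gene needed for lasting acquired thermotolerance, had signals of 164.8, 76.6 and 120.5 in wild type seedlings and 122.1, 67.2 and 120.9 in the mutant, with a change of −0.18 ± 0.28 (adjusted p = 0.864). *Hop3*, *SQN* and *HSA32* were below the array median on all 6 arrays, so the limits of dim signals apply to them too.

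Of 4 tested genes of the HSP70 and J protein list none passed. The J protein gene AT2G20560 had means of 126 ± 36.1 and 86.7 ± 12.8 (log2 change −0.44 ± 0.24, adjusted p = 0.520), and overlapping groups. It was below the array median on all 6 arrays. Its change was −0.26 without wild type replicate 2 and −0.17 with the RNA quality covariate. *Hsp70-2* had a change of −0.05 ± 0.12, with means of 531 ± 50.4 and 512 ± 8.96, and ran from −0.13 to 0.00 over the alternatives. None of the 12 tested genes listed as FKBP or tetratricopeptide immunophilins passed, and their median change was −0.03. AT1G73655 came nearest, at −0.29 ± 0.10 (adjusted p = 0.251), with signals of 2767, 2200 and 2619 in wild type seedlings and 2052, 2119 and 1989 in the mutant, which did not overlap. AT1G18170 was at −0.19 ± 0.12 (adjusted p = 0.581), and at −0.10 without wild type replicate 3. The other 10 immunophilin genes lay between −0.07 and 0.08, and *ROF1* had no probe set of its own in the table.

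**Figure D4:**
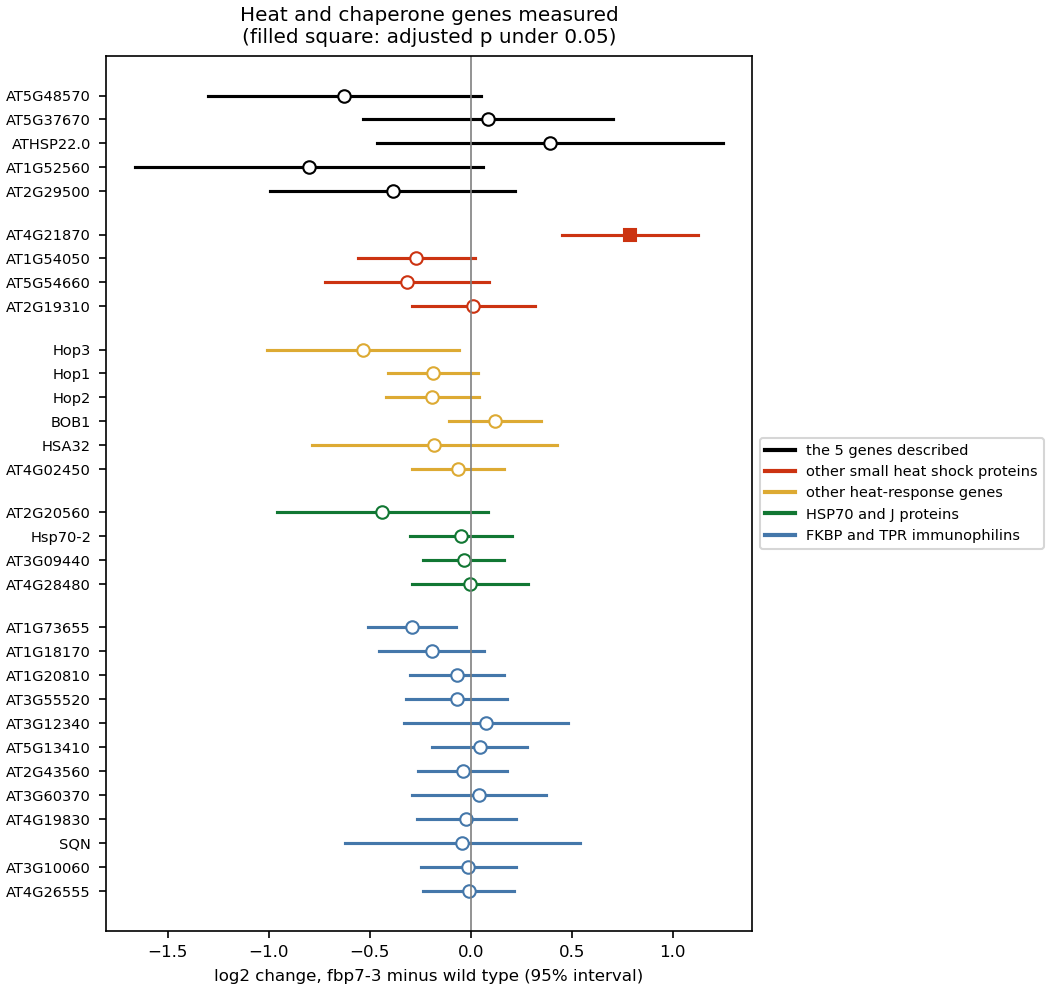
Log2 change of the 5 genes and of the 26 other tested heat and chaperone genes, *fbp7-3* minus wild type, with 95% intervals, coloured by list. The filled square, AT4G21870 at 0.79, is the single gene past an adjusted p of 0.05, and open circles did not pass.

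Small heat shock proteins are also made in seeds, and in bulk seedlings fewer cells of a type and less RNA per cell cannot be told apart. Of 14 seed and embryo markers 2 were measured, and storage protein and oleosin genes were not analysed here. *M17*, of the late embryogenesis type, was called lower in the mutant (log2 change −2.02 ± 0.43, adjusted p = 0.0372, limma), as were 0.533% of tested probe sets. Its signals were 399.1, 1236.4 and 201.2 in wild type seedlings and 124.5, 112.5 and 78.3 in the mutant. Its values under the alternatives are not given here. *ICL*, which encodes the glyoxylate cycle enzyme isocitrate lyase, had a change of −1.05 ± 0.42 (adjusted p = 0.325). The summed signal of *M17* and *ICL* was 289.7 to 1641 in wild type seedlings and 160.8 to 273.7 in the mutant. It was highest on wild type replicate 2, where *M17* was at 1236, while the 5 members averaged −0.12 there. Of 5 root and root hair markers 3 were measured, with a summed signal of 377 to 585 in wild type seedlings and 304 to 388 in the mutant, and none passed. All 3 were below 0, and AT3G49960 was lower on each mutant array than on any wild type array (−0.75 ± 0.25, adjusted p = 0.218). Of 6 leaf photosynthesis markers 3 were measured, with 50725 to 54708 in wild type seedlings and 53446 to 63114 in the mutant. All 3 were above 0 and none passed, and *LHCB4.1* was higher on each mutant array (0.24 ± 0.10, adjusted p = 0.345). The lowest summed root signal, 304, was on mutant replicate 2, where the 5 members were lowest on average too. The root markers disagreed on that array. *EXPA7* (46.8) and *EXPA18* (160.4) had their lowest signals there, and AT3G49960 its highest among the mutant arrays (96.4). AT3G49960 and *EXPA7* were below the array median on all 6 arrays. The lowest summed seed signal, 160.8, was on mutant replicate 3. Detection calls were not used for the markers either, and the part of the seed and root markers in the members' values was not tested.

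The genes whose pattern over the arrays was most like the mean of the 5 members were sought among 9440 other tested probe sets with 1 gene. The 5 most alike were AT3G22800, AT1G14310, AT4G18930, AT3G25290 and AT3G53440, with Pearson coefficients of 0.97 to 0.99 over the 6 arrays. All 5 had their lowest signal on mutant replicate 2 and their highest on wild type replicate 1. The members' mean, by which they were chosen, had its extremes on the same arrays, so this is not a separate observation. AT3G22800, the first of them, had signals of 104.0, 67.1 and 86.6 in wild type seedlings and 71.7, 42.7 and 80.0 in the mutant. None of the 5 passed the test between genotypes (adjusted p = 0.557 to 0.921). Among the listed heat and chaperone genes *HSA32* was the most alike, at 0.90 and in place 36 of the 9440, AT4G21870 was at −0.44 and AT2G19310 was the least alike, at −0.73. Of these 26 genes 13 were above 0 and 13 below. With 6 arrays and 9440 candidates the order is a description only.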

How the data were processed

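Per the labels, total RNA from about 80 mg of seedlings was labelled with biotin and hybridised to ATH1 arrays. The deposited values are intensities, made with MAS5 per the submitters' processing notes; neither its version nor its settings are given in the sources used here. With the lowest and highest 2% left out, the mean was 500 on each array, a common target.

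Of 22810 probe sets, 64 controls were left out. Of the other 22746, 13513 had 1 gene in the platform's annotation, 503 had several and 8730 were not listed. RefSeq (TAIR10.1) gave symbols for 13436. No coordinates are given, because no build is named.

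From the deposited intensities log2(signal + 16) was taken, and probe sets in the lowest 25% of mean log2 value were left out, leaving 17059. The test between genotypes was limma's (version 3.58.1, R 4.3.3; lmFit, then eBayes with an intensity trend; 4 residual and 10.4 prior degrees of freedom), adjusted by Benjamini-Hochberg over all tested probe sets. Folds and changes on the log2(signal + 16) scale understate changes of dim genes. The fit was tested on simulated data with independent noise and no difference in RNA quality between the groups. That test cannot show how the fit does where RNA quality moves with the genotype, as on these arrays. Figures were drawn with matplotlib 3.10.9.

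The 5 genes, gene lists and tests were chosen with earlier results of these data known, and gene classes in the lists came from general knowledge. The text names all 5 genes, from each heat or chaperone list the genes past the threshold or else the 2 with the smallest p, and the 5 probe sets most like the members' mean; any further gene was picked with its values known. The alternatives used pseudocounts of 1 and 64, other filters, scalings, variance models, array weights, a replicate term, an RNA quality covariate (mean log2 3′ to 5′ ratio of actin, GAPDH and ubiquitin controls) and each array left out.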

Additional observations from a re-analysis of the deposited data

Results flagged for a closer look

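The control probe sets lie outside the comparison of genes, and 3 of 6 ratios of 3′ to 5′ signal had each mutant array above each wild type array. The GAPDH ratio was 3.13 ± 0.31 on the mutant arrays and 2.50 ± 0.07 on those of the wild type (SD, n = 3 each, two-sided exact permutation p = 0.1) in the first series of controls and 1.36 ± 0.12 and 1.14 ± 0.11 (exact permutation p = 0.1) in the second. The ubiquitin ratio of the first series was 3.79 ± 0.29 and 3.40 ± 0.12 (exact permutation p = 0.1). A p of 0.1 is the smallest that 3 against 3 allows.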

How the results depend on the processing

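None of the 5 genes passed under any of the 16 alternatives that gave them a value. With the lowest 50% of probe sets left out none of the 5 was tested. Unadjusted limma p values under 0.05 did occur in some alternatives, for every member but AT5G37670. The lowest were 0.0136 for AT5G48570 (no intensity trend) and 0.0278 for AT1G52560 (without mutant replicate 3). For AT2G29500 it was 0.0298 (RNA quality covariate) and for *ATHSP22.0* 0.0271 (without mutant replicate 2). AT5G48570 (−0.82 to −0.36), AT1G52560 (−1.41 to −0.34) and AT2G29500 (−0.96 to −0.18) stayed below 0 in all 16; the RNA quality covariate gave the ends at −1.41 and −0.96 and took AT5G48570 to −0.46. AT5G37670 turned to −0.46 and *ATHSP22.0* to −0.19 with the RNA quality covariate, and AT5G37670 ran from −0.17 to 0.25 over the fits without 1 array, below 0 without wild type replicate 2 (−0.17) or mutant replicate 3 (−0.06). The cause was not tested. The count of called heat and chaperone genes went from 1 to 0 with no filter, without the intensity trend and with the RNA quality covariate, and was 0 to 1 over the fits without 1 array. The count of all called probe sets, 180, became 75 with no filter, 6 without the trend and 24 with the covariate, and ran from 74 to 248 without 1 array. It was 81 or 115 with the first or the second wild type array left out, and 89 or 74 with the second or the third mutant array left out. Deviations of same-numbered arrays correlated at −0.03 to 0.00. The labels do not say whether same-numbered arrays were processed together, and this correlation cannot show it. With a replicate block the count was 211, AT4G21870 still passed (adjusted p = 0.0255) and no member did. Signals near background limit what the 5 probe sets can resolve.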
